A study of Homo sapiens with 18 samples.

Results

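A set of 40 interferon-induced genes, out of the 27968 gene symbols in the files, was followed through an RNA-sequencing study of cancer cells depleted of BLM, a RecQ helicase that unwinds recombination intermediates. The genes form a named list of interferon-stimulated genes, taken by gene symbol. The list was chosen with earlier results of these data known. A gene was tested in a line where it reached 1 CPM (reads scaled to library size) in at least 3 libraries. There were 31 testable genes in A549, a lung cancer line, and 39 in MDA-MB-231, a breast cancer line of the triple-negative type. The 6 groups of 3 libraries were A549 given siRNA1, siRNA2 or siRNA3 against BLM, A549 given a control siRNA, MDA-MB-231 given siRNA1, and MDA-MB-231 given a control siRNA. The siRNAs are described only by number, and siRNA1 is taken from that name to be the same reagent in both lines. Each line is an immortal culture and no group received interferon according to the labels. Flat and 3D culture are both described, without saying which library came from which, and nothing says whether a group's 3 libraries were grown independently. The p-values therefore rest on library-to-library spread, part or all of which may be technical.

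When a cell senses viral or misplaced nucleic acid it makes interferon, which binds receptors on the same cell and its neighbours. The type I and type III receptors act through the kinases JAK1 and TYK2 to join STAT2 and IRF9 with a further STAT protein into the complex ISGF3, which binds the interferon-stimulated response element (ISRE) in promoters. Interferon gamma acts through a different STAT dimer on the gamma-activated sequence (GAS). The induced proteins block virus entry, degrade or trap viral RNA, and tune the pathway itself, and many carcinoma lines keep part of the set on without any virus.

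The promoters of the genes were read from RefSeq (GRCh38.p14, 250 bases before to 50 bases after each transcript start) to show the element the set is named for. Of the 40 genes, 31 had an entry, with 41 promoters among them. IFIT2, MX2, OAS2, OASL, IRF7, USP18, IFITM2, TRIM22 and GBP2 had no entry. The ISRE core, searched as GAAANNGAA on both strands, was found in 23 of the 31 genes (74.2%), against 9.86% of all 27305 genes with an entry. Counted by promoter, 28 of the 41 held it, against 8.11% of all 35116 promoters of the same length. The GAS motif, TTCNNNGAA, which reads the same on both strands, was found in 11 of the 31 genes (35.5%), against 9.38% of all genes with an entry. A match is a run of letters and says nothing of binding. Among the genes with an entry, HERC6, STAT2, IRF1, IRF9, SAMD9L, OAS1, IFI35 and XAF1 had no ISRE core in the window.

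**Figure D1:**
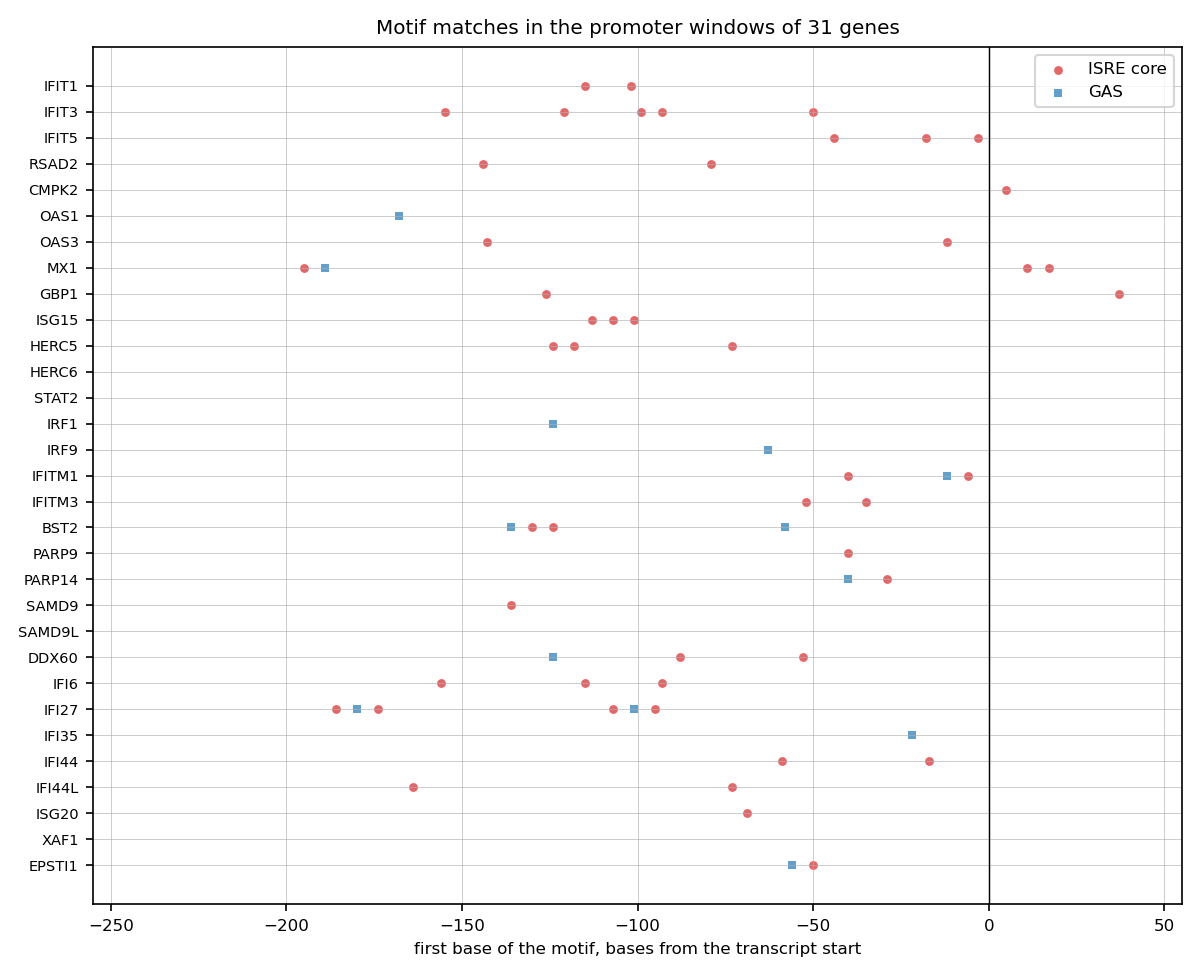
Position of each ISRE core (red circles) and GAS motif (blue squares) in the promoter windows of the 31 genes with an entry; the x axis gives bases from the transcript start, with 0 the first transcribed base and all annotated starts of a gene on 1 row. ISRE cores lay in the windows of 23 of the 31 genes, most of them before the start.

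Among promoters with an ISRE core, the 5 whose genes had the smallest adjusted p in any siRNA comparison are shown. Genes with a smaller adjusted p were passed over for want of a core (HERC6, SAMD9L and IFI35) or of an entry (such as GBP2). Of the genes shown, IFI44, MX1, IFI44L and GBP1 were below 1 CPM in every A549 control library and passed the filter there through siRNA libraries. Each promoter shown is written 5′ to 3′ on the strand of its gene, with the ISRE core on either strand in capitals. They are IFI44 (chr1:78649539-78649838, plus strand, core at -17 from the start), MX1 (chr21:41420308-41420607, plus strand, cores at 11 and 17, which overlap each other), IFI44L (chr1:78620198-78620497, plus strand, cores at -164 and -73), GBP1 (chr1:89065159-89065458, minus strand, cores at -126 and 37) and IFIT1 (chr10:89392373-89392672, plus strand, cores at -115 and -102).
IFI44: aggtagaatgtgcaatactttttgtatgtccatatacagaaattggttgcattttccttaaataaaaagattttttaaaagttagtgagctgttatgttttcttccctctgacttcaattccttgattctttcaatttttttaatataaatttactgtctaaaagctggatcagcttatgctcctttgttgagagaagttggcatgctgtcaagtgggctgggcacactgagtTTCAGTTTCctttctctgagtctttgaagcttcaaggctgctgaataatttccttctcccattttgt
MX1: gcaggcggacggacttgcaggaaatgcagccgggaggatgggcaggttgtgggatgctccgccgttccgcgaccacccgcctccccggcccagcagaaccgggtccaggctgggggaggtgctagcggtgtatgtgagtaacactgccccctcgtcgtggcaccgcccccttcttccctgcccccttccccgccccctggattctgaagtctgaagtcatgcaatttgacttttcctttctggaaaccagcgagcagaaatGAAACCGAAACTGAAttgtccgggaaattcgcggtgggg
IFI44L: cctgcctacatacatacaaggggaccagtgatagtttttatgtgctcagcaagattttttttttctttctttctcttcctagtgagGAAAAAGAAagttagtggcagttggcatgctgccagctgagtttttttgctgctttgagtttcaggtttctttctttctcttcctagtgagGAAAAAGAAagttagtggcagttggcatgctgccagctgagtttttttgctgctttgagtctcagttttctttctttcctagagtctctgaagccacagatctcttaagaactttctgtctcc
GBP1: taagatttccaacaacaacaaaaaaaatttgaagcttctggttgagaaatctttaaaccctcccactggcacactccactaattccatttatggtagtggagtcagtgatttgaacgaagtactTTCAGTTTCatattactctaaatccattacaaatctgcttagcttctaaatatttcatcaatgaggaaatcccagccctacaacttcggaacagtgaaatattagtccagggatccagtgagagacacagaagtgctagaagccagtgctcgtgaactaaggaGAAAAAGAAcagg
IFIT1: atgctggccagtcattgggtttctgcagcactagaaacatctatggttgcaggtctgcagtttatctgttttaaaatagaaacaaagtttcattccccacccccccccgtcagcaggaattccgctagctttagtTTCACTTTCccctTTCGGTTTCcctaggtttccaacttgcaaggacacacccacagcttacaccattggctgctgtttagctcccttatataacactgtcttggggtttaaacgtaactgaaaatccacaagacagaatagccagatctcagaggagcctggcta

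Library totals ran from 30143047 to 40328208 expected counts. BLM averaged 1.5%, 13.3% and 8.27% of its A549 control level with siRNA1, siRNA2 and siRNA3, and 14.8% of its MDA-MB-231 control level with siRNA1. Library 3 of A549 siRNA3 stood apart. The SD of its log2 deviations from its group mean was 0.237, against 0.0775 to 0.157 in the other 17 libraries, and these deviations followed gene length with a Spearman rho of -0.686 over genes, so results with siRNA3 are also given without it. All 6 epithelial markers (KRT7, KRT8, KRT18, KRT19, EPCAM, CDH1) were above 1 TPM in every group. They summed to 17455 to 20013 TPM with A549 siRNA1, 8636 to 8961 with siRNA2 and 8391 to 9153 with siRNA3, against 8568 to 9209 in A549 control, and to 1643 to 1795 in MDA-MB-231 siRNA1 against 1987 to 2318 in its control. Single markers differed. CDH1 had 144 to 152 CPM with siRNA1, 170.0 to 175 with siRNA2 and 3.03 to 4.21 with siRNA3, against 42.0 to 50.1 in A549 control. KRT19 had 74.1 to 95.4 CPM with siRNA3, against 41.6 to 46.3 in A549 control. With siRNA2, EPCAM had 47.5 to 60.9 CPM and KRT7 1513 to 1659, against 1.98 to 2.55 and 2768 to 3215 in A549 control. Of the 6, 5 were higher and 0 lower with siRNA1, where 38.8% and 35.6% of all genes were. With siRNA2 these were 4 and 1 (31.6% and 32.6%), and with siRNA3 1 and 1 (32% and 32.3%). The 4 mesenchymal markers summed to 1831 to 1875, 2173 to 2228 and 2690 to 2744 TPM with A549 siRNA1, siRNA2 and siRNA3, against 1402 to 1557 in A549 control, and to 2879 to 2921 in MDA-MB-231 siRNA1 against 4265 to 4311 in its control. Of 8 leukocyte markers 3 reached 1 TPM in each group, mainly CD68, while PTPRC and CD3E stayed at or below 0.13 and 0.10 TPM, and the list summed to 29.2 to 31.9 TPM with A549 siRNA1, 41.0 to 43.2 with siRNA2, 38.6 to 43.5 with siRNA3, 25.9 to 31.3 in A549 control, 249 to 272 in MDA-MB-231 siRNA1 and 249 to 277 in MDA-MB-231 control. Plasmacytoid dendritic markers summed to at most 0.83 TPM, with CLEC4C and LILRA4 at 0 in every library. The 6 fibroblast markers, mostly COL1A1, summed to 11 to 12.6, 14.7 to 16.0 and 5.42 to 9.27 TPM with A549 siRNA1, siRNA2 and siRNA3, against 1.69 to 1.79 in A549 control, and to 8.95 to 9.70 in MDA-MB-231 siRNA1 against 6.93 to 7.64 in its control. Of the 4 mesenchymal markers, 2 were higher and 0 lower with A549 siRNA1, 3 and 0 with siRNA2 and 3 and 1 with siRNA3. Of 3 testable leukocyte markers, these were 1 and 0, 2 and 0, and 2 and 1. Of 3 testable fibroblast markers, they were 3 and 0, 3 and 0, and 1 and 1. In MDA-MB-231 they were 0 and 4 mesenchymal, 1 and 1 leukocyte, and 1 and 1 fibroblast. There 29.9% of all genes were higher and 29.8% lower. The A549 shares of all genes are given above. The part of these lists in the results was not tested.

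The 2 lines differed in these genes before any BLM siRNA. In control libraries 12 of the 40 genes averaged at least 10 TPM in A549, against 32 in MDA-MB-231, and the median gene stood at 3.28 TPM in A549 and 25.5 TPM in MDA-MB-231. TPM corrects for gene length as well as library size and so lets genes be ranked. In A549 control the leading genes were IFITM2 (73.4 ± 3.03 TPM, SD, n = 3) and IFITM3 (41.6 ± 4.86), membrane proteins that block the fusion of entering viruses, then OAS3 (29.8 ± 2.74) and OAS1 (22.3 ± 1.76), synthetases that activate RNase L when they meet double-stranded RNA. In MDA-MB-231 control they were IFITM3 (409 ± 27.0), ISG15 (249 ± 44.9), a ubiquitin-like protein attached to new proteins, BST2 (166 ± 31.6), which tethers budding virions, and IFITM2 (133 ± 8.41). At the other end 15 genes averaged under 1 TPM in A549 control, and 2, RSAD2 and CMPK2, in MDA-MB-231 control.

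Of 38 genes tested between the controls, 4 were higher in A549, 32 were higher in MDA-MB-231 and 2 were not called, where 41.7% of all 14146 genes were called higher and 41.8% lower in A549. The genes' median log2 difference, A549 over MDA-MB-231, was -2.73, against -0.00 over all genes. The 4 higher in A549 were USP18 (1.96 ± 0.12), which removes ISG15 from proteins and blocks the type I receptor, OAS1 (0.91 ± 0.08), OAS3 (0.42 ± 0.08) and PARP9 (0.38 ± 0.08). USP18 held 8.87, 9.0 and 8.91 TPM in A549 control, against 2.59, 2.82 and 2.87 in MDA-MB-231 control. GBP1, a guanylate-binding GTPase, had 0.170, 0.110 and 0.240 TPM in A549 control, against 63.3, 64.4 and 68.9 in MDA-MB-231 control, a log2 difference of -8.27 ± 0.14 (edgeR adjusted p = 8.21e-14). The groups did not overlap for either gene. However, 12 of the 38 genes, GBP1 among them, were below 1 CPM in every A549 control library and passed the filter through MDA-MB-231, so they had to be lower in A549. Among the other 26, 4 were higher in A549, 20 lower and 2 not called, with a median of -1.29. On deposited TPM with 1 added, 2 genes were higher in A549 and 34 lower, the median of all genes lay at -0.23, and 4486 genes were higher and 7206 lower, against 5893 and 5920 on counts. On that scale PARP9 turned to -0.05 and OAS3 stood at 0.15 without a call (limma adjusted p = 0.115).

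**Figure D2:**
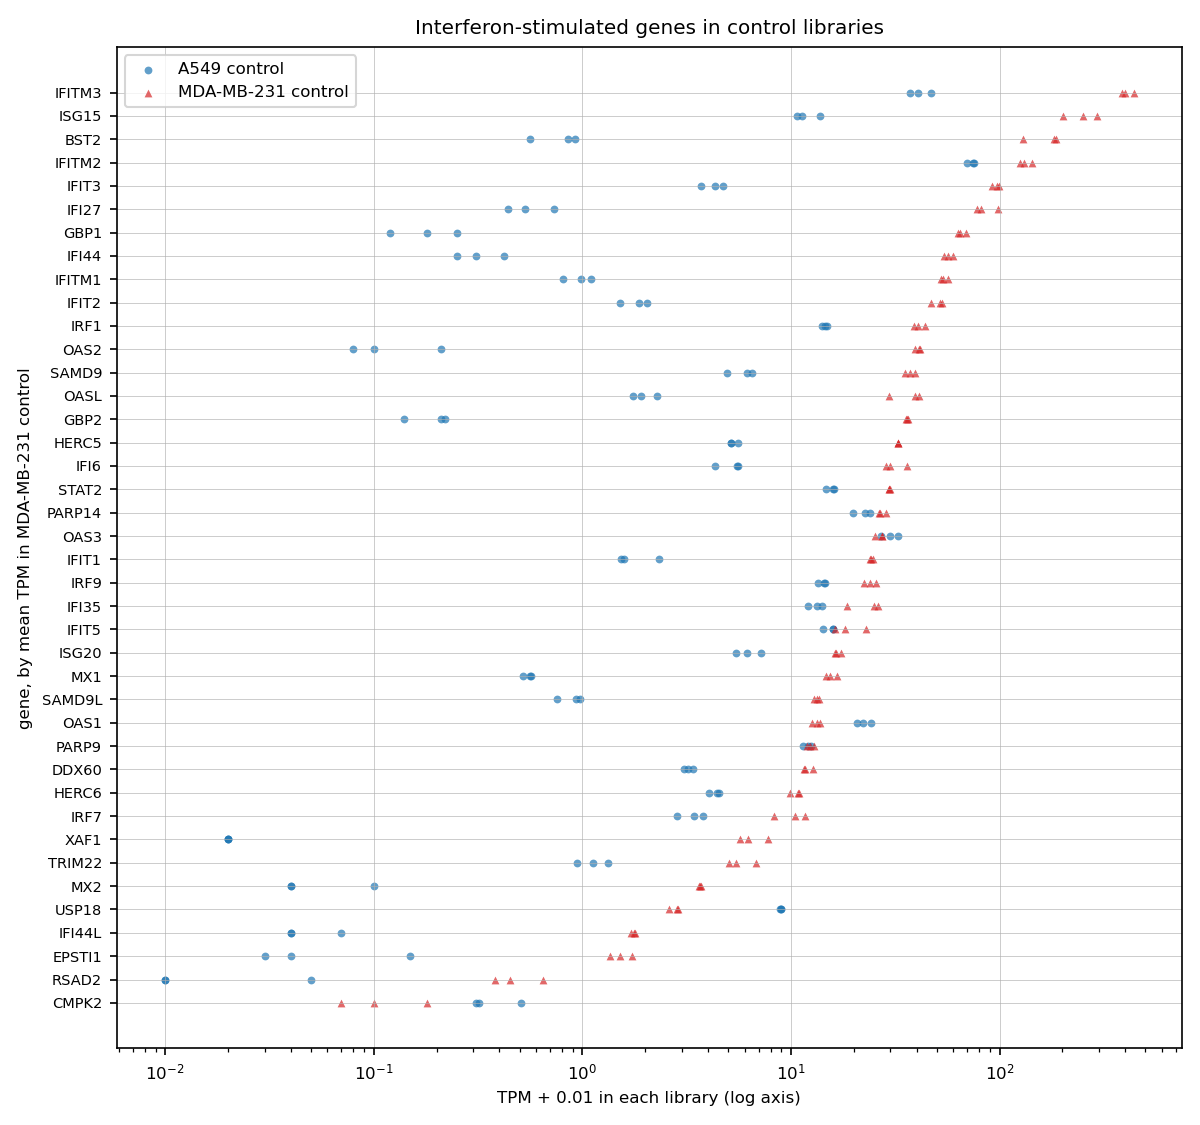
TPM plus 0.01 of each of the 40 genes in the 3 A549 control libraries (circles) and the 3 MDA-MB-231 control libraries (triangles), on a log axis and ordered by the MDA-MB-231 mean. The MDA-MB-231 points lie to the right for most genes, and those of USP18, OAS1 and the low CMPK2 lie wholly to the left of the A549 points.

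In A549 most of the testable genes rose and a few fell with each BLM siRNA. In these bulk libraries, a change in how many cells express a gene and a change in RNA per cell cannot be told apart. With siRNA1, 20 of 31 rose and 5 fell, where 38.8% of all 14098 genes were called higher and 35.6% lower. With siRNA2, 18 rose and 3 fell, where 31.6% were higher and 32.6% lower. With siRNA3, 17 rose and 5 fell, where 32% were higher and 32.3% lower. The median log2 fold change of the 31 was 0.57, 0.47 and 0.38 with siRNA1, siRNA2 and siRNA3, against 0.04, -0.02 and -0.01 over all genes. The 5 genes MX1, GBP1, GBP2, IFI44 and IFI44L were below 1 CPM in every A549 control library and passed the filter through siRNA libraries, so they had to be high there. Among the other 26, 16 rose and 5 fell with siRNA1, 14 rose and 3 fell with siRNA2, and 13 rose and 5 fell with siRNA3. The median log2 fold change of these 26 was 0.46, 0.40 and 0.26 with siRNA1, siRNA2 and siRNA3. The 3 comparisons share the 3 control libraries. On deposited TPM with 1 added the counts were 24 higher and 5 lower, 21 and 1, and 15 and 5, while all genes moved to 6929 higher and 3387 lower with siRNA1 (median 0.25) and to 5075 higher and 3485 lower with siRNA2.

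**Figure D3:**
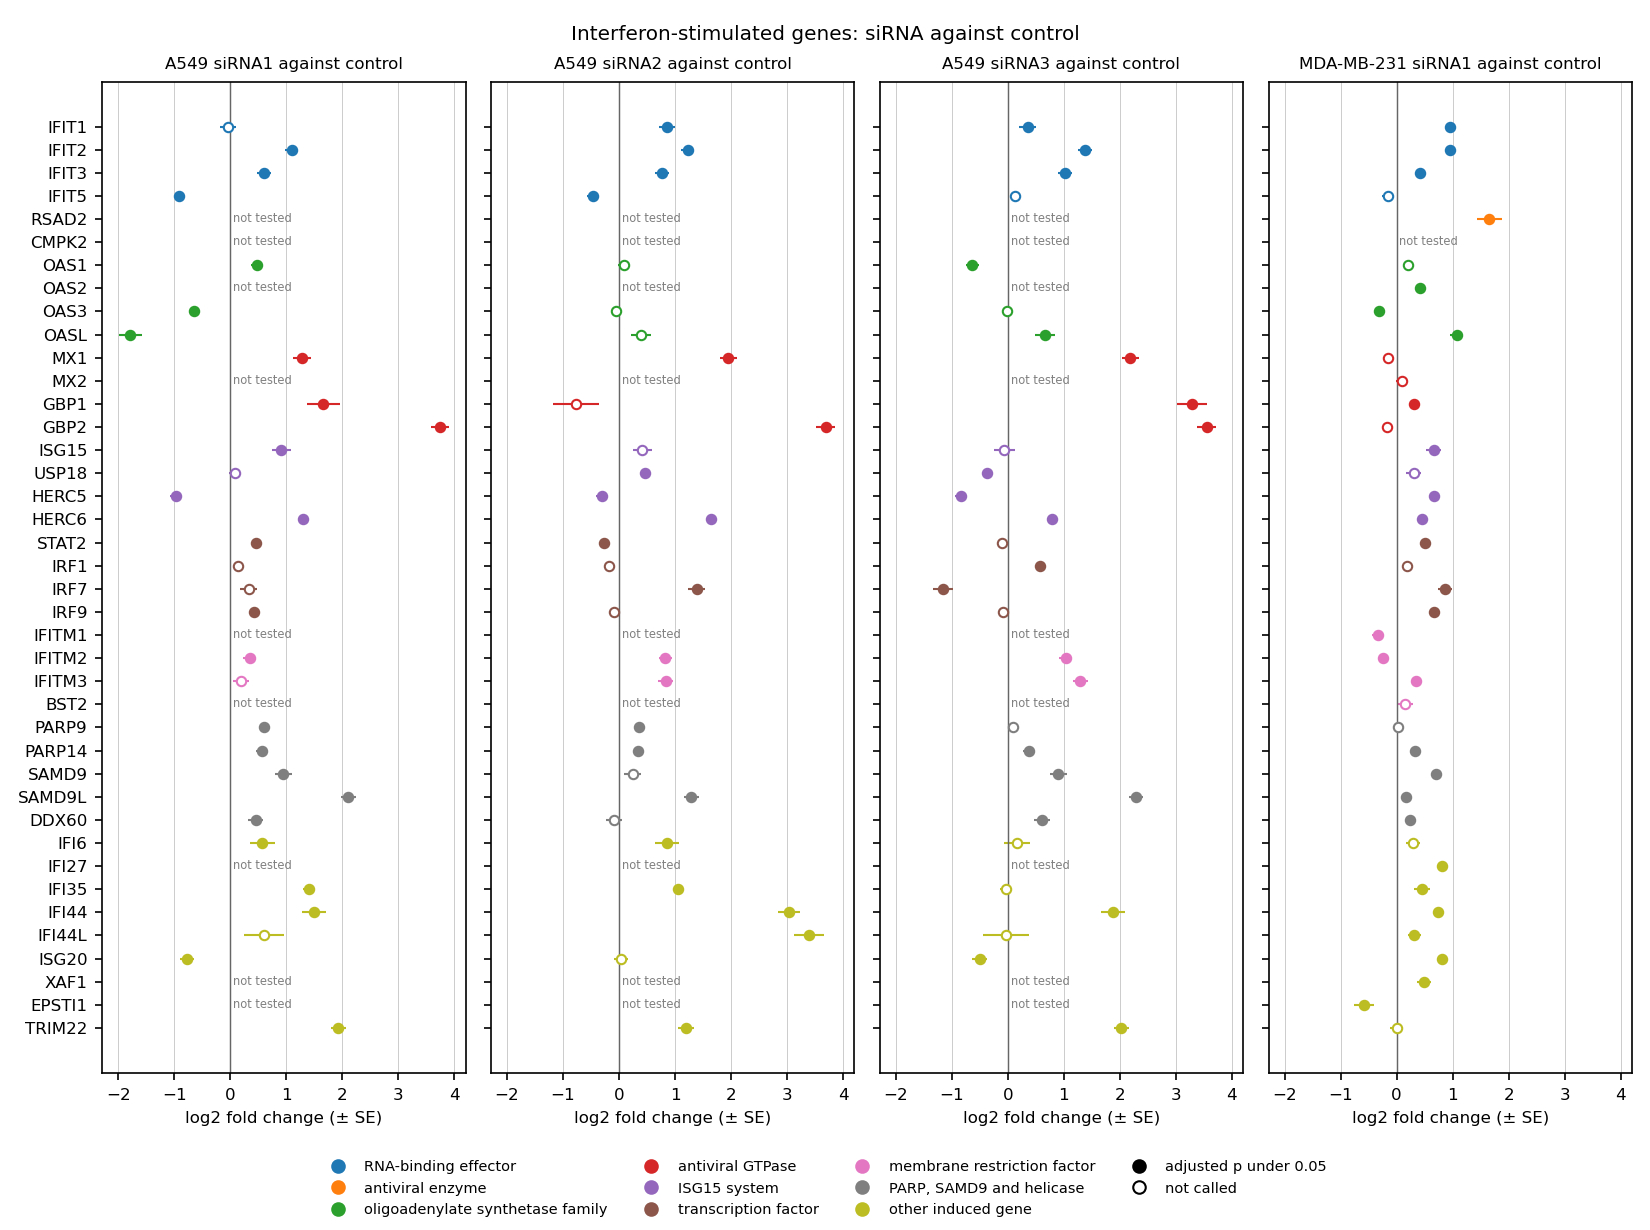
Log2 fold change (± SE) of the 40 genes for A549 siRNA1, siRNA2 and siRNA3 and for MDA-MB-231 siRNA1, each against the control of its line; colours give the role of the gene, filled points an edgeR adjusted p under 0.05 and open points no call. GBP2, SAMD9L, TRIM22 and MX1 lie far to the right in the 3 A549 panels and near 0 in the MDA-MB-231 panel, and HERC5 lies left of 0 in A549 and right of 0 in MDA-MB-231.

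Of the 31 genes, the antiviral GTPase GBP2 had the highest log2 fold change with each A549 siRNA. GBP2, which coats vacuoles of intracellular pathogens, had 5.56, 4.97 and 5.46 CPM with siRNA1, 4.96, 5.34 and 5.11 with siRNA2 and 4.47, 4.40 and 5.16 with siRNA3, against 0.448, 0.460 and 0.283 in A549 control. Every siRNA library lay far above every control library. GBP2 was below 1 CPM in every control library and passed the filter through siRNA libraries, so at least 3 of those had to exceed control. The log2 fold changes were 3.74 ± 0.17, 3.69 ± 0.17 and 3.55 ± 0.17 with siRNA1, siRNA2 and siRNA3 (edgeR adjusted p = 3.63e-10, 2.44e-09 and 2.61e-09), and the siRNAs were not called different from each other for GBP2.

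MX1, which traps viral nucleocapsids, had 2.05, 2.06 and 2.1 CPM with siRNA1, 2.84, 3.28 and 3.82 with siRNA2 and 4.21, 3.93 and 3.52 with siRNA3, against 0.869, 0.892 and 0.797 in A549 control. The control libraries were the lowest and the siRNA1 libraries lay between control and both other siRNAs. MX1 too was below 1 CPM in every control library, so at least 3 siRNA libraries had to exceed control. The log2 fold changes were 1.28 ± 0.16, 1.95 ± 0.16 and 2.19 ± 0.15. GBP1 followed another order, with 0.773, 1.1 and 0.819 CPM with siRNA1, 0.195, 0.0857 and 0.210 with siRNA2 and 2.71, 2.43 and 3.21 with siRNA3, against 0.263, 0.189 and 0.386 in A549 control. It rose with siRNA1 (1.66 ± 0.29) and siRNA3 (3.29 ± 0.27), while the siRNA2 libraries overlapped control (-0.77 ± 0.40, adjusted p = 0.111). GBP1 passed the filter in the same way, through siRNA1 and siRNA3 libraries. MX2, a paralogue that acts at the nuclear pore, was not testable in A549. GBP1, GBP2 and the related genes are similar in sequence, and RSEM divides reads that match several of them.

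The pair SAMD9 and SAMD9L, neighbours on chromosome 7 whose proteins arrest translation in infected cells, both rose with siRNA1 and siRNA3. SAMD9L had 14.6, 15.4 and 13.0 CPM with siRNA1, 7.61, 8.85 and 7.94 with siRNA2 and 18.1, 17.2 and 13.5 with siRNA3, against 3.61, 3.00 and 3.37 in A549 control. All siRNA libraries exceeded all control libraries, with siRNA2 lowest among the siRNAs. The log2 fold changes were 2.11 ± 0.13, 1.29 ± 0.13 and 2.29 ± 0.13 (adjusted p = 8.72e-09, 2.33e-06 and 1.11e-08). SAMD9 had 40.2, 47.9 and 37.9 CPM with siRNA1, 23.7, 25.2 and 28.4 with siRNA2 and 48.6, 42.8 and 30.9 with siRNA3, against 23.8, 19.2 and 22.4 in A549 control. SAMD9 rose with siRNA1 (0.95 ± 0.15) and siRNA3 (0.90 ± 0.15), and the siRNA2 libraries overlapped control (0.24 ± 0.15). Without the library that stood apart, the siRNA3 value for SAMD9 was 1.1 and the siRNA2 value reached the threshold at 0.29 (adjusted p = 0.0266).

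The helicase-like DDX60 rose with siRNA1 (0.45 ± 0.13) and siRNA3 (0.61 ± 0.14) and stood at -0.09 ± 0.14 with siRNA2. PARP14, an ADP-ribosyltransferase, rose with siRNA1 (0.57 ± 0.10), siRNA2 (0.34 ± 0.10) and siRNA3 (0.38 ± 0.10), the last without a call on deposited TPM (limma adjusted p = 0.0592 with 1 added). Its relative PARP9 rose with siRNA1 (0.60 ± 0.07) and siRNA2 (0.36 ± 0.07) and stood at 0.09 ± 0.07 with siRNA3.

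In the ISG15 system the neighbouring genes HERC5 and HERC6 on chromosome 4 moved in opposite ways. HERC6, whose mouse counterpart is the main ISG15 ligase, had 21.3, 23.3 and 21.7 CPM with siRNA1, 27.9, 28.8 and 26.8 with siRNA2 and 13.8, 16.9 and 15.9 with siRNA3, against 9.21, 8.65 and 9.0 in A549 control. The siRNA groups and the control group did not overlap, and the log2 fold changes were 1.3 ± 0.09, 1.64 ± 0.09 and 0.79 ± 0.09 (adjusted p = 1.99e-08, 8.33e-09 and 4.85e-06). HERC5, the main human ISG15 ligase, had 4.52, 5.11 and 5.51 CPM with siRNA1, 8.08, 8.11 and 7.76 with siRNA2 and 5.07, 6.30 and 5.30 with siRNA3, against 10.3, 9.97 and 9.44 in A549 control. Every siRNA library was below every control library, with log2 fold changes of -0.97 ± 0.11, -0.31 ± 0.10 and -0.83 ± 0.11 (adjusted p = 2.26e-06, 0.0185 and 1.66e-05). The siRNA2 call of HERC5 was lost without any 1 of the 3 siRNA2 or 3 control libraries (adjusted p of 0.0535 to 0.133) and on deposited TPM with 1 added (-0.15). ISG15 itself rose with siRNA1 (0.91 ± 0.17), with 6.79, 5.30 and 6.38 CPM against 2.90, 3.95 and 3.01 in A549 control, and stood at 0.42 ± 0.17 with siRNA2 (adjusted p = 0.0505) and -0.06 ± 0.18 with siRNA3. USP18 rose with siRNA2 (0.47 ± 0.09), fell with siRNA3 (-0.37 ± 0.09) and stood at 0.08 ± 0.09 with siRNA1.

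The genes IFI44 and IFI44L, side by side on chromosome 1 and of poorly known function, were highest with siRNA2. By the filter's CPM, taken without TMM scaling, both reached 1 only in the 3 siRNA2 libraries and passed through them. Their top place with siRNA2 was therefore set by the filter. IFI44 had 0.698, 0.802 and 0.682 CPM with siRNA1, 2.03, 2.31 and 1.98 with siRNA2 and 0.894, 0.900 and 1.05 with siRNA3, against 0.290, 0.216 and 0.257 in A549 control. All siRNA libraries exceeded control, and the log2 fold changes were 1.5 ± 0.22, 3.03 ± 0.19 and 1.88 ± 0.21 (adjusted p = 2.86e-05, 3.20e-08 and 5.23e-06). IFI44L had 0.249, 0.187 and 0.164 CPM with siRNA1, 1.31, 1.51 and 1.44 with siRNA2 and 0.173, 0.10 and 0.105 with siRNA3, against 0.105, 0.189 and 0.103 in A549 control. It rose with siRNA2 (3.40 ± 0.26, adjusted p = 2.00e-07), while the siRNA1 and siRNA3 libraries overlapped control (0.60 ± 0.36 and -0.04 ± 0.41).

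TRIM22, a ubiquitin ligase that restricts several viruses, had 6.51, 7.70 and 6.82 CPM with siRNA1, 3.82, 4.43 and 4.42 with siRNA2 and 7.03, 7.63 and 7.78 with siRNA3, against 1.5, 1.89 and 2.11 in A549 control. No siRNA library reached down to control, and the log2 fold changes were 1.93 ± 0.14, 1.2 ± 0.14 and 2.02 ± 0.14. IFI35 had 21.5, 18.9 and 22.2 CPM with siRNA1, 16.8, 16.8 and 15.8 with siRNA2 and 6.92, 7.60 and 8.58 with siRNA3, against 7.90, 7.51 and 8.26 in A549 control. It rose with siRNA1 (1.4 ± 0.10, adjusted p = 2.43e-08) and siRNA2 (1.06 ± 0.10), and the siRNA3 libraries spread across the control range (-0.04 ± 0.10). IFI6, a mitochondrial and reticulum protein, rose with siRNA1 (0.57 ± 0.22) and siRNA2 (0.85 ± 0.22) and stood at 0.16 ± 0.23 with siRNA3. Its siRNA1 call was lost without siRNA1 library 1 or 3 or control library 2 (adjusted p of 0.0695 to 0.112). ISG20, an RNA exonuclease, fell with siRNA1 (-0.77 ± 0.13) and siRNA3 (-0.51 ± 0.13) and stood at 0.04 ± 0.13 with siRNA2.

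The IFIT family, which bind the ends of viral RNA, split. IFIT2 had 7.01, 7.38 and 6.96 CPM with siRNA1, 7.47, 8.42 and 7.52 with siRNA2 and 8.59, 8.67 and 8.75 with siRNA3, against 3.71, 3.57 and 2.73 in A549 control, and its partner IFIT3 had 8.48, 8.45 and 8.51, then 9.28, 10.6 and 8.63, then 10.3, 12.5 and 11.2, against 5.61, 6.43 and 4.78. Neither gene's siRNA libraries overlapped control. IFIT2 rose by 1.09 ± 0.12, 1.23 ± 0.12 and 1.38 ± 0.12 and IFIT3 by 0.60 ± 0.12, 0.76 ± 0.12 and 1.02 ± 0.12 on the log2 scale with siRNA1, siRNA2 and siRNA3. IFIT1 had 4.27, 4.23 and 3.93 CPM with siRNA1, 7.72, 7.77 and 7.70 with siRNA2 and 5.16, 6.13 and 5.02 with siRNA3, against 5.37, 3.87 and 3.55 in A549 control. It rose with siRNA2 (0.86 ± 0.14) and siRNA3 (0.35 ± 0.15, adjusted p = 0.0490), and the siRNA1 and siRNA3 libraries overlapped control. The siRNA3 call of IFIT1 was lost with the replicate block (adjusted p = 0.0512), in DESeq2 (0.0590) and without siRNA3 library 2 (0.175), control library 2 (0.143) or control library 3 (0.175), among other settings. IFIT5 fell with siRNA1 (-0.91 ± 0.10) and siRNA2 (-0.47 ± 0.10) and stood at 0.13 ± 0.10 with siRNA3.

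The oligoadenylate synthetases did not move together. OAS1 rose with siRNA1 (0.48 ± 0.11), fell with siRNA3 (-0.63 ± 0.11) and stood at 0.09 ± 0.11 with siRNA2. OAS3 fell with siRNA1 (-0.64 ± 0.09) and stood at -0.05 ± 0.09 and -0.02 ± 0.09 with siRNA2 and siRNA3. OASL, which lacks synthetase activity and assists RNA sensing by RIG-I, had 0.449, 0.776 and 0.60 CPM with siRNA1, 3.18, 2.46 and 2.59 with siRNA2 and 3.00, 3.60 and 3.38 with siRNA3, against 2.40, 2.08 and 1.80 in A549 control. The siRNA1 libraries were all below control (-1.78 ± 0.21) and the siRNA3 libraries all above it (0.67 ± 0.18, adjusted p = 0.00499), and siRNA2 was not called (0.39 ± 0.18). IFITM2 rose with siRNA1 (0.35 ± 0.12), siRNA2 (0.83 ± 0.12) and siRNA3 (1.03 ± 0.12), and IFITM3 rose with siRNA2 (0.83 ± 0.14) and siRNA3 (1.3 ± 0.14) and stood at 0.19 ± 0.14 with siRNA1. The siRNA3 libraries held 39.6, 42.0 and 57.8 CPM of IFITM2, and without the third, which stood apart, the siRNA3 values were 0.87 for IFITM2 and 1.13 for IFITM3. IFITM2 and IFITM3 are close copies, so the division of reads between them is uncertain.

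The 4 transcription factor genes did not move together. STAT2 had 52.0, 50.9 and 54.7 CPM with siRNA1, 33.4, 31.9 and 30.0 with siRNA2 and 35.3, 37.6 and 33.3 with siRNA3, against 38.9, 37.5 and 38.0 in A549 control. It rose with siRNA1 (0.46 ± 0.07), fell with siRNA2 (-0.26 ± 0.07) and was not called with siRNA3 (-0.11 ± 0.07). The siRNA2 call of STAT2 was lost without siRNA2 library 2 or 3 or control library 1 or 3 (adjusted p of 0.0576 to 0.127) and on deposited TPM with 1 added (-0.12). IRF9, its partner in ISGF3, had 15.6, 14.6 and 17.3 CPM with siRNA1, 11.4, 10.7 and 11.4 with siRNA2 and 10.7, 10.6 and 12.3 with siRNA3, against 11.9, 11.7 and 12 in A549 control. The siRNA1 libraries were above control (0.42 ± 0.09), the siRNA2 libraries were below it without a call (-0.09 ± 0.09), and the siRNA3 libraries straddled it (-0.08 ± 0.09).

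IRF7, the amplifier of type I interferon genes, had 3.89, 3.90 and 4.86 CPM with siRNA1, 8.86, 9.54 and 7.88 with siRNA2 and 1.56, 1.77 and 1.19 with siRNA3, against 2.82, 3.54 and 3.70 in A549 control. The siRNA2 libraries were highest and the siRNA3 libraries lowest, with log2 fold changes of 0.33 ± 0.15 (adjusted p = 0.0697), 1.38 ± 0.15 (adjusted p = 3.73e-06) and -1.15 ± 0.18 (adjusted p = 7.23e-05) with siRNA1, siRNA2 and siRNA3. IRF1, the main factor of the gamma response, had 30.2, 27.9 and 31.3 CPM with siRNA1, 23.9, 25.1 and 23.0 with siRNA2 and 37.2, 41.2 and 43.0 with siRNA3, against 25.5, 28.0 and 27.5 in A549 control. It rose with siRNA3 (0.58 ± 0.08), and siRNA1 (0.14 ± 0.08) and siRNA2 (-0.17 ± 0.08) were not called.

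The 9 genes outside the filter in A549 were RSAD2, CMPK2, OAS2, MX2, IFITM1, BST2, IFI27, XAF1 and EPSTI1, whose highest value in any A549 library was the 1.02 CPM of CMPK2 with siRNA1. Among them IFI27 had 0.474, 0.588 and 0.518 CPM with siRNA1, 0.139, 0.40 and 0.180 with siRNA2 and 0.144, 0.10 and 0.0697 with siRNA3, against 0.0790, 0.135 and 0.129 in A549 control, so its siRNA1 and siRNA2 libraries lay above control and siRNA3 overlapped it. With edgeR's filterByExpr in place of the 1 CPM filter, 5 of the 9 could be tested. IFI27 (2.18 ± 0.40, adjusted p = 0.000274) and CMPK2 (0.78 ± 0.31, adjusted p = 0.0336) were then higher with siRNA1, IFITM1 (1.06 ± 0.36) and BST2 (0.89 ± 0.27) were higher with siRNA2, CMPK2 was lower with siRNA3 (-1.32 ± 0.40), and OAS2 was not called.

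**Figure D4:**
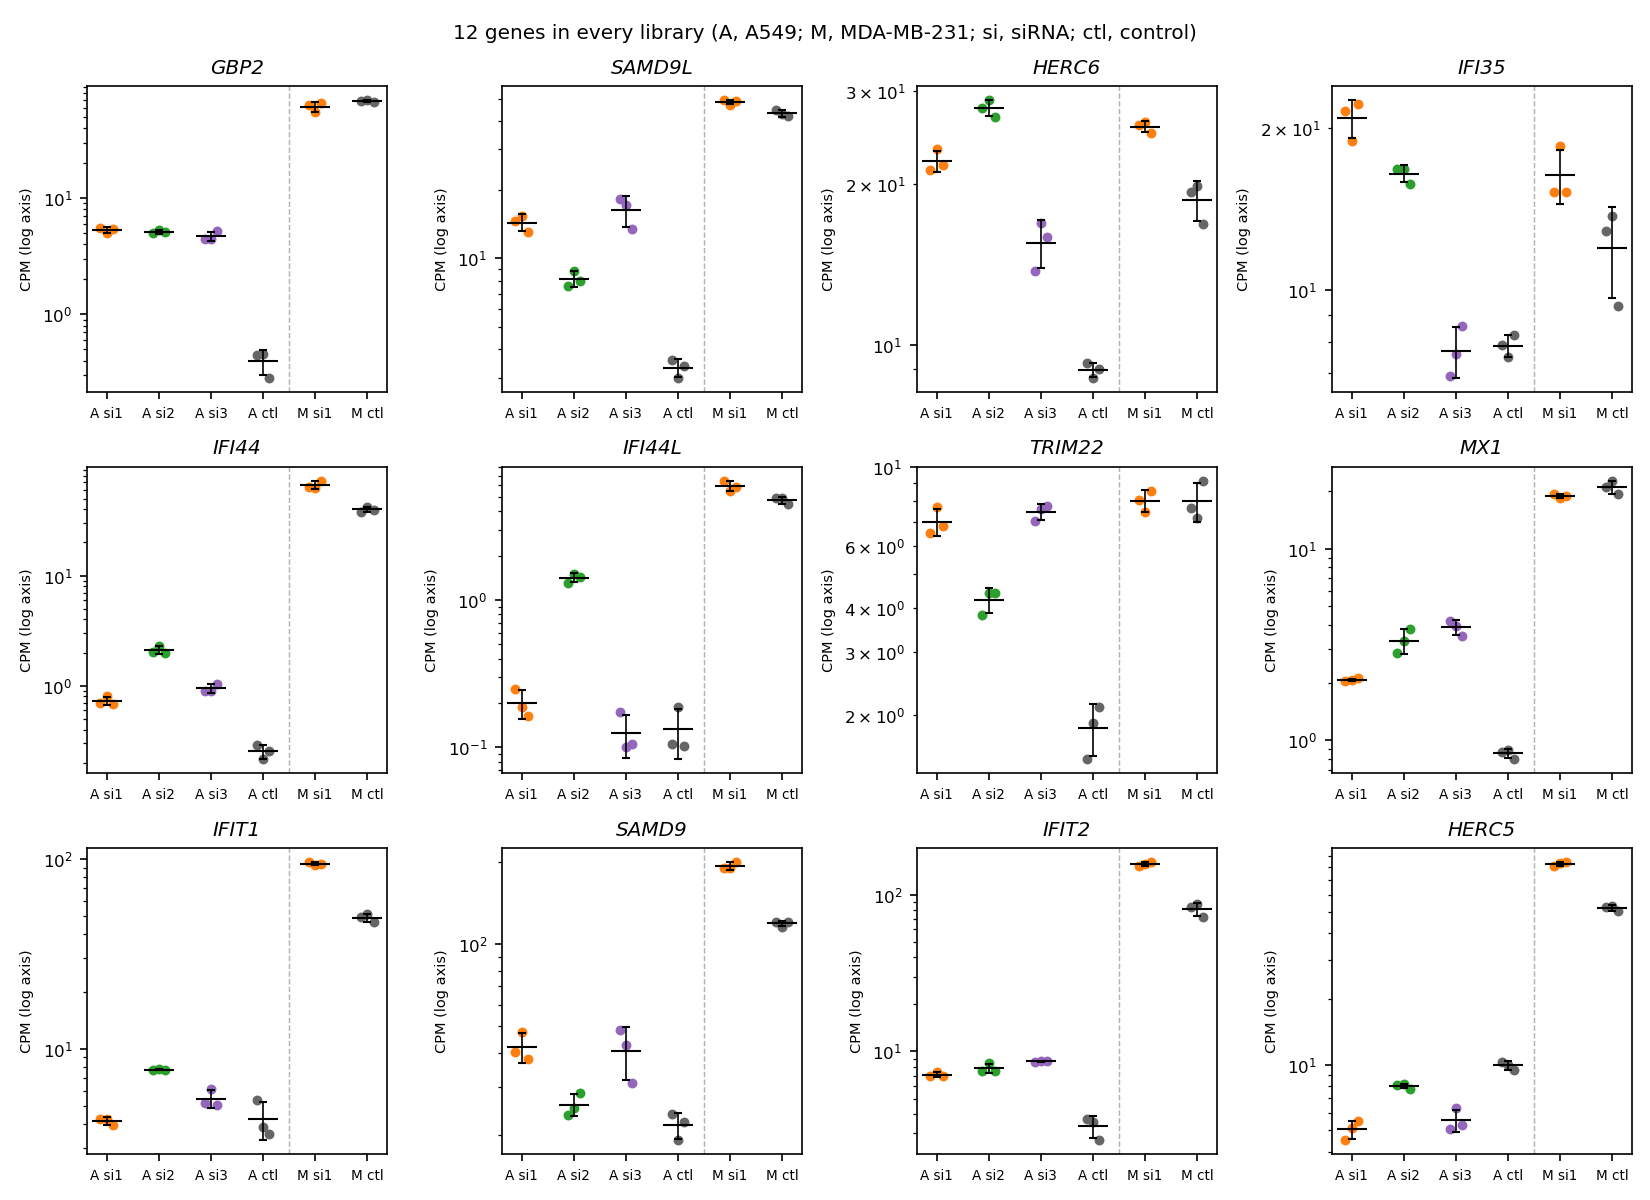
CPM on log axes in all 18 libraries for 12 genes, those among the 4 smallest adjusted p of any siRNA comparison against control. Points are libraries and bars the mean ± SD of 3. A549 siRNA1, siRNA2, siRNA3 and control stand left of the dashed line and MDA-MB-231 siRNA1 and control right of it. The vertical scale differs between panels. In A549 the 3 control points of GBP2, SAMD9L, HERC6, IFI44, TRIM22, MX1 and IFIT2 lie below all siRNA points, and those of HERC5 lie above them.

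The siRNAs were also compared directly with each other, since they target the same mRNA. Between siRNA1 and siRNA2, 12 of the 31 genes were higher and 14 lower with siRNA1, where 31.2% of all genes were higher and 27.7% lower. Between siRNA1 and siRNA3, 9 were higher and 11 lower with siRNA1, where 34.4% were higher and 34.7% lower. Between siRNA2 and siRNA3, 13 were higher and 8 lower with siRNA2, where 29.2% were higher and 32.4% lower. Leaving out the 5 genes below 1 CPM in A549 control gave 11 higher and 11 lower of 26 for siRNA1 over siRNA2. It gave 9 and 9 for siRNA1 over siRNA3, and 11 and 7 for siRNA2 over siRNA3. The widest gaps were GBP1 between siRNA2 and siRNA3 (-4.06 ± 0.30), IFI44L between siRNA2 and siRNA3 (3.44 ± 0.28) and between siRNA1 and siRNA2 (-2.80 ± 0.24), IRF7 between siRNA2 and siRNA3 (2.54 ± 0.17), and OASL between siRNA1 and siRNA3 (-2.45 ± 0.21). GBP1 passed the filter through siRNA1 and siRNA3 libraries and IFI44L through siRNA2 libraries alone. The gaps of these 2 genes were therefore partly set by the filter. GBP2 was not called in any pair, with differences of 0.05 ± 0.12, 0.19 ± 0.12 and 0.14 ± 0.13 for siRNA1 over siRNA2, siRNA1 over siRNA3 and siRNA2 over siRNA3. On deposited TPM with 1 added all genes moved to 5430 higher and 2902 lower for siRNA1 over siRNA2, 6611 and 3040 for siRNA1 over siRNA3, and 4889 and 3297 for siRNA2 over siRNA3.

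Without the third siRNA3 library, 17 genes rose and 5 fell with siRNA3, where 34.8% of all genes were higher and 33.4% lower, and each of the 31 kept its call. The siRNA1 counts became 23 higher and 5 lower, where 42.6% of all genes were higher and 36.7% lower. The siRNA2 counts became 21 higher and 3 lower, where 37.2% were higher and 33.3% lower.

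In MDA-MB-231, where the genes started high, siRNA1 raised 24 of 39 and lowered 4, where 29.9% of all 13572 genes were called higher and 29.8% lower. The median log2 fold change was 0.33, against 0.01 over all genes. RSAD2 (viperin, a radical enzyme that makes a chain-terminating nucleotide) had 2.18, 2.84 and 2.3 CPM with siRNA1, against 1.03, 0.718 and 0.579 in MDA-MB-231 control, and passed the filter mainly through siRNA1. It rose by 1.65 ± 0.22 on the log2 scale, and without it 23 of 38 genes rose and 4 fell.

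IFIT1 had 96.7, 92.8 and 94.5 CPM with siRNA1, against 49.6, 51.3 and 46.6 in MDA-MB-231 control, and IFIT2 had 151, 157 and 161 CPM with siRNA1, against 82.9, 86.8 and 72.4 in MDA-MB-231 control. The groups of both genes lay apart with little spread. The log2 fold change was 0.95 ± 0.05 for IFIT1 (adjusted p = 9.67e-07) and 0.95 ± 0.07 for IFIT2 (adjusted p = 3.85e-06). IFIT3 also rose (0.41 ± 0.06), and IFIT5 was not called (-0.16 ± 0.10).

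SAMD9 had 189, 190 and 200.1 CPM with siRNA1, against 120.3, 116 and 121 in MDA-MB-231 control, and rose by 0.70 ± 0.05 (adjusted p = 2.51e-06). HERC5 had 81.1, 83.2 and 84.5 CPM with siRNA1, against 52.8, 53.4 and 50.5 in MDA-MB-231 control, and rose by 0.67 ± 0.05 (adjusted p = 5.13e-06). Neither pair of groups overlapped. The transcription factors STAT2 (0.50 ± 0.06), IRF9 (0.67 ± 0.07) and IRF7 (0.87 ± 0.13) rose. STAT2 had 93.0, 81.7 and 88.5 CPM with siRNA1, against 62.2, 64.0 and 59.7 in MDA-MB-231 control. IRF9 had 26.9, 27.2 and 28.1 CPM with siRNA1, against 18.6, 16.4 and 16.8 in MDA-MB-231 control. IRF7 had 15.9, 16.6 and 15.6 CPM with siRNA1, against 10.2, 9.20 and 6.94 in MDA-MB-231 control. All siRNA1 libraries exceeded all control libraries for these factors. IRF1 had 76.3, 69.7 and 74.4 CPM with siRNA1, against 69.5, 66.3 and 59.0 in MDA-MB-231 control, groups that lay apart by a small margin and were not called (0.18 ± 0.07, adjusted p = 0.0513).

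Others that rose were OASL (1.07 ± 0.12), IFI27 (0.82 ± 0.09), ISG20 (0.81 ± 0.09), IFI44 (0.73 ± 0.07), ISG15 (0.66 ± 0.13), XAF1 (0.49 ± 0.12), HERC6 (0.46 ± 0.07), IFI35 (0.45 ± 0.14), OAS2 (0.41 ± 0.05), IFITM3 (0.34 ± 0.07), PARP14 (0.33 ± 0.05), IFI44L (0.32 ± 0.11), GBP1 (0.31 ± 0.05), DDX60 (0.23 ± 0.06) and SAMD9L (0.16 ± 0.05). The 4 that fell were EPSTI1 (-0.59 ± 0.18), IFITM1 (-0.33 ± 0.10), OAS3 (-0.32 ± 0.07) and IFITM2 (-0.24 ± 0.07). Not called were TRIM22 (0.00 ± 0.12), PARP9 (0.02 ± 0.07), MX2 (0.09 ± 0.11), BST2 (0.16 ± 0.13), OAS1 (0.21 ± 0.09), IFI6 (0.29 ± 0.12), USP18 (0.31 ± 0.13), MX1 (-0.15 ± 0.07) and GBP2 (-0.16 ± 0.07), beside IFIT5 and IRF1 above. The calls of IFI44L, SAMD9L, IFI35, EPSTI1, IFITM1 and IFITM2 were each lost when at least 1 library of MDA-MB-231 was left out.

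The 2 lines share no library, and siRNA1 was given to both. Of 31 genes tested in both, 20 rose in A549, 20 rose in MDA-MB-231 and 13 rose in both, which is 65% of each list of 20. Since 64.5% of the 31 rose in each line, this is close to the share that rose in general. Among the 20 of A549, MX1, GBP1, GBP2 and IFI44 were below 1 CPM in every A549 control library and passed the filter through siRNA libraries. GBP1 and IFI44 are also among the 13. Without the 5 genes below 1 CPM in A549 control, 16 of 26 rose in A549. Of all 12635 genes tested in both lines, 43.7% of those higher in A549 were also higher in MDA-MB-231, where 30.1% of all were higher. OAS3 fell in both. OASL, HERC5 and ISG20 fell in A549 and rose in MDA-MB-231, and IFITM2 rose in A549 and fell in MDA-MB-231.

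The difference itself, the siRNA1 effect in A549 minus that in MDA-MB-231, was tested for 39 genes. It was positive for 11 and negative for 8, where 29.3% of all 14896 genes were called positive and 34.1% negative, and 20 were not called. Of the 39, 8 were outside the filter in A549 and entered through MDA-MB-231. Among the other 31, 10 were positive, 8 negative and 13 not called, with a median of 0.21. These 31 still hold 5 genes below 1 CPM in every A549 control library, which passed the A549 filter through siRNA libraries. Of these 5, MX1, GBP1, GBP2 and IFI44 were positive and IFI44L was not called, so the count of positive genes was partly set by the filter. The median of the 39 was 0.15, against -0.05 over all genes. GBP2 had 62.8, 54.6 and 65.6 CPM with siRNA1 in MDA-MB-231, against 68.9, 69.5 and 66.8 in its control, whereas in A549 siRNA1 came with the rise given above. The siRNA1 libraries of MDA-MB-231 were all below control for GBP2, and the difference between lines was 3.87 ± 0.18 (adjusted p = 1.69e-10). SAMD9L had 49.1, 47.1 and 48.7 CPM with siRNA1 in MDA-MB-231, against 44.8, 42.7 and 41.7 in its control, a small rise, and the difference was 1.91 ± 0.12 (adjusted p = 4.38e-09). HERC5, which went opposite ways, differed by -1.68 ± 0.11 (adjusted p = 4.79e-09). The genes furthest positive beside these were TRIM22 (1.89 ± 0.19), MX1 (1.39 ± 0.15) and GBP1 (1.32 ± 0.25), and those furthest negative were OASL (-2.89 ± 0.27) and ISG20 (-1.61 ± 0.16). STAT2 (-0.07 ± 0.09), IFIT2 (0.11 ± 0.14), IFIT3 (0.15 ± 0.13), SAMD9 (0.21 ± 0.13) and PARP14 (0.21 ± 0.09) were not called. On deposited TPM with 1 added, 12 genes were positive and 10 negative, and all genes moved to 6093 positive and 3690 negative (median 0.14), with IFI44 turning to -0.09.

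**Figure D5:**
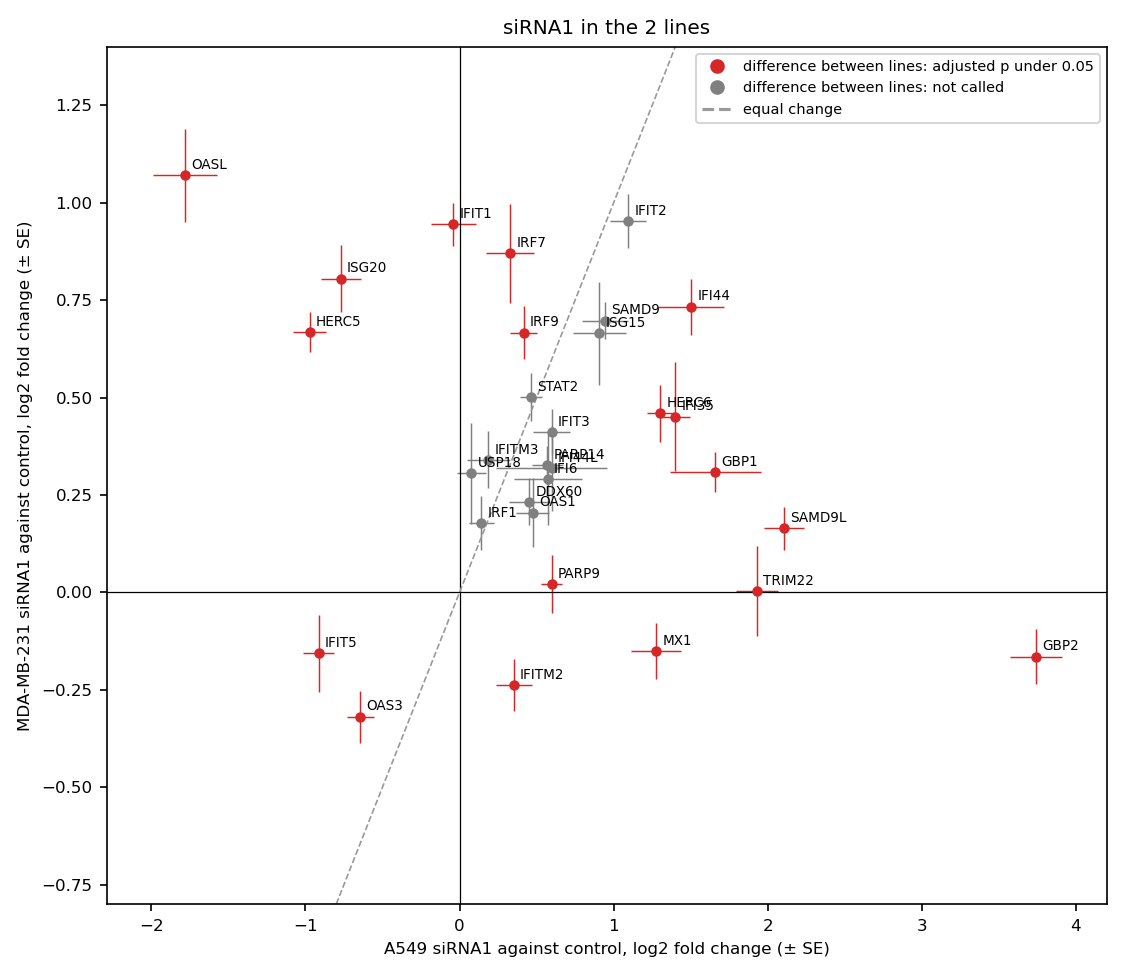
Log2 fold change (± SE) of siRNA1 against control in A549 (x axis) and MDA-MB-231 (y axis) for the 31 genes tested in both lines; red points have an adjusted p under 0.05 for the difference between lines, grey points were not called, and the dashed line marks equal change. GBP2, at 3.74 in A549 and -0.16 in MDA-MB-231, lies furthest right, and OASL, HERC5 and ISG20 lie left of 0 and above it.

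The rest of the pathway was read from lists of ligands, receptors, regulators and further induced genes. Of 10 interferon genes only IFNE, an interferon of the reproductive tract, was testable. IFNE had 4.47, 5.27 and 4.80 CPM with siRNA1, 9.56, 7.99 and 7.34 with siRNA2 and 7.96, 7.37 and 8.65 with siRNA3, against 3.84, 3.89 and 4.45 in A549 control. The siRNA libraries were all above control, IFNE rose with siRNA2 (1.03 ± 0.12) and siRNA3 (0.97 ± 0.12) and was not called with siRNA1 (0.25 ± 0.13), and it was at 0 in all 6 MDA-MB-231 libraries. IFNB1 reached at most 0.15 TPM and IFNA2, IFNG and IFNL3 were at 0 in every library, while IFNA1 reached 2.09 TPM in A549 siRNA3 and IFNL1 1.16 TPM in MDA-MB-231 siRNA1. In siRNA3 libraries 1, 2 and 3 IFNA1 had 0.0577, 0.367 and 0.941 CPM, all below 1 CPM, and the third is the library that stood apart. With siRNA2 IFNA1 had 0.251, 0.343 and 0.301 CPM, against 0.0790, 0 and 0.0772 in A549 control.

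Of 11 receptors and signal transducers, 3 rose and 5 fell with A549 siRNA1, 4 and 1 with siRNA2, 3 and 4 with siRNA3, and 5 and 4 with MDA-MB-231 siRNA1. Of all genes, 38.8%, 31.6% and 32% were higher and 35.6%, 32.6% and 32.3% lower with A549 siRNA1, siRNA2 and siRNA3. In MDA-MB-231, 29.9% of all genes were higher and 29.8% lower. The receptor chain IFNAR2 fell with each, with A549 log2 fold changes of -1.12 ± 0.08, -0.74 ± 0.08 and -0.49 ± 0.08 and an MDA-MB-231 value of -0.27 ± 0.07. STAT3 rose in A549 (1.43 ± 0.07, 0.79 ± 0.07 and 0.66 ± 0.07) and stood at 0.13 ± 0.06 in MDA-MB-231. IFNLR1, the type III receptor chain, rose with A549 siRNA1 (0.73 ± 0.12) and siRNA2 (1.11 ± 0.12), fell with siRNA3 (-0.65 ± 0.13) and rose in MDA-MB-231 (0.62 ± 0.09).

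Among 6 other interferon regulatory factors 3 were testable in each line. With A549 siRNA1, siRNA2 and siRNA3, 1 rose and 2 fell, 0 rose and 2 fell, and 1 rose and 1 fell, and none was called in MDA-MB-231. IRF3, which is activated by nucleic acid sensors, fell with each siRNA in A549 (-0.31 ± 0.10, -0.34 ± 0.10 and -0.41 ± 0.10) and stood at 0.23 ± 0.10 in MDA-MB-231. Of the negative regulators 3 rose and 5 fell of 10 with A549 siRNA1, 3 and 4 with siRNA2, 1 and 5 with siRNA3, and 2 and 2 of 11 in MDA-MB-231. For both lists, the shares of all genes called are those given above for the receptors. SOCS3, a feedback inhibitor of JAK kinases, fell in A549 (-1.49 ± 0.07, -1.65 ± 0.07 and -0.64 ± 0.07) and stood at 0.01 ± 0.08 in MDA-MB-231, and PTPN2, a phosphatase of JAKs and STATs, fell in A549 (-1.36 ± 0.11, -0.27 ± 0.11 and -0.35 ± 0.11) and stood at 0.12 ± 0.05 in MDA-MB-231.

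Of 40 further interferon-stimulated genes 34 were testable in A549, of which 20 rose and 5 fell with siRNA1, 19 and 5 with siRNA2, and 22 and 3 with siRNA3. Of all genes, 38.8%, 31.6% and 32% were higher and 35.6%, 32.6% and 32.3% lower with A549 siRNA1, siRNA2 and siRNA3. In MDA-MB-231, 18 of 40 rose and 8 fell, where 29.9% of all genes were higher and 29.8% lower. GBP3 had 19.5, 21.0 and 19.9 CPM with siRNA1, 9.89, 9.74 and 10.2 with siRNA2 and 7.24, 8.2 and 7.39 with siRNA3, against 2.32, 3.16 and 2.75 in A549 control, without overlap, and its log2 fold changes were 2.88 ± 0.11, 1.86 ± 0.11 and 1.47 ± 0.11. IFIH1 (MDA5, a sensor of double-stranded RNA) rose by 1.07 ± 0.10, 1.2 ± 0.10 and 0.67 ± 0.10 in A549 and by 1.05 ± 0.07 in MDA-MB-231.

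EIF2AK2 (PKR, the kinase that halts translation on double-stranded RNA) fell with 3 of the 4 siRNA treatments, A549 siRNA1 (-1.29 ± 0.15), A549 siRNA2 (-0.92 ± 0.15) and MDA-MB-231 siRNA1 (-1.73 ± 0.08). With siRNA3 it had 113, 107.9 and 71.3 CPM, against 99.6, 87.3 and 93.1 in A549 control, and was not called (0.06 ± 0.15). The third of these is the library that stood apart, and without it EIF2AK2 was higher with siRNA3 (0.27 ± 0.09, adjusted p = 0.0209). EIF2AK2 had 31, 25.7 and 30.6 CPM with siRNA1 in MDA-MB-231, against 93.3, 96.8 and 100.2 in its control, and no siRNA1 library came near a control library. The chemokine genes CXCL11 and CXCL10, which attract T cells, rose in MDA-MB-231 by 1.78 ± 0.12 and 1.91 ± 0.16 on the log2 scale and had at most 0.0263 CPM in any A549 library. CXCL11 had 25.5, 20.3 and 22.1 CPM with siRNA1, against 5.69, 6.67 and 7.32 in MDA-MB-231 control, with no overlap.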

How the data were processed

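RNA sequencing of 18 libraries (6 groups of 3) was analysed from the deposited gene tables. RSEM and hg19 appear in the submitters' processing notes, and the deposited expected counts, so headed in the files, estimate each gene's reads. For the aligner, annotation release and counting strand, the information is not given in the sources used here. Deposited TPM values, scaled to gene length and library total per the file headers, gave levels between genes and an alternative test. Between 10.2% and 11.8% of expected counts were not whole (no tolerance), so close copies are uncertain.

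Expected counts were rounded. Genes with at least 1 CPM in 3 libraries of a fit were tested with edgeR 4.0.16 (R 4.3.3, TMM scaling, quasi-likelihood F test), and an adjusted p under 0.05 (Benjamini-Hochberg over all genes tested) was a call. A549 (12 libraries), MDA-MB-231 (6), the interaction (12) and the controls (6) had a fit each with group means only. CPM is TMM-scaled within a line, and ± after a log2 value is its standard error. The steps were tested on simulated data. The genes and pathway lists were chosen with earlier results of these data known. The text names all 40 genes, BLM, pathway genes among the 4 smallest adjusted p per list and comparison, and IFNB1, IFNA1, IFNA2, IFNG, IFNL1 and IFNL3 and marker genes, chosen after their values were seen. Library values are given for the genes with the 4 smallest adjusted p per siRNA comparison and 3 smallest for the interaction, for STAT2, IRF9, IRF1 and IRF7, and for others chosen after their values were seen. Alternatives were RLE size factors, DESeq2 1.42.0, other filters (filterByExpr, no filter), limma 3.58.1 on log2 TPM plus 1 or 0.1, only the groups compared, the replicate block, leaving out each library, and a minimum log2 fold change of 1.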

Additional observations from a re-analysis of the deposited data

Results flagged for a closer look

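The siRNA1 effect differed between the lines by the interaction test of edgeR for 19 genes. All values are log2, the effect in A549 minus that in MDA-MB-231, with 3 libraries in each of the 4 groups.

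The effect was higher in A549 for GBP2 (3.87 ± 0.18, adjusted p = 1.69e-10), SAMD9L (1.91 ± 0.12, adjusted p = 4.38e-09), TRIM22 (1.89 ± 0.19, adjusted p = 5.43e-07), MX1 (1.39 ± 0.15, adjusted p = 1.59e-06), HERC6 (0.81 ± 0.11, adjusted p = 1.61e-05) and IFITM2 (0.56 ± 0.10, adjusted p = 0.000186). It was also higher for GBP1 (1.32 ± 0.25, adjusted p = 0.000318), IFI35 (0.92 ± 0.18, adjusted p = 0.000371), PARP9 (0.54 ± 0.11, adjusted p = 0.000419), IFI27 (1.32 ± 0.35, adjusted p = 0.00432) and IFI44 (0.73 ± 0.25, adjusted p = 0.0235). IFI27 was below 1 CPM in every A549 library, so its value rests on few A549 reads. GBP2, MX1, GBP1 and IFI44 were below 1 CPM in every A549 control library and passed the A549 filter through siRNA libraries. Their values also rest on few A549 control reads, such as 17, 17 and 11 for GBP2 and 11, 8 and 10 for IFI44.

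The effect was lower in A549 for HERC5 (-1.68 ± 0.11, adjusted p = 4.79e-09), OASL (-2.89 ± 0.27, adjusted p = 3.04e-07), ISG20 (-1.61 ± 0.16, adjusted p = 5.15e-07), IFIT1 (-1.02 ± 0.16, adjusted p = 5.52e-05), IFIT5 (-0.79 ± 0.14, adjusted p = 0.000169), OAS3 (-0.36 ± 0.11, adjusted p = 0.0091), IRF7 (-0.58 ± 0.20, adjusted p = 0.0224) and IRF9 (-0.29 ± 0.11, adjusted p = 0.0303). The IRF9 difference lost its call with RLE size factors, both other filters, DESeq2 and TPM, and ranged from -0.27 to -0.06 over the settings that lost it, with an adjusted p of 0.472 without A549 siRNA1 library 2. The IRF7 difference lost its call with filterByExpr, on TPM with 0.1 added and without A549 siRNA1 library 1 or 2 or A549 control library 2 or 3. The OAS3 difference lost its call on TPM and without A549 siRNA1 library 2 or A549 control library 1 or 3, and those of GBP1 and IFI27 on TPM with 1 added. OASL, HERC5 and ISG20 fell in A549 and rose in MDA-MB-231, each with its own call in both lines.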

How the results depend on the processing

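Over the repeats of single-gene results under other settings, 5105 kept their side of the threshold and direction, 120 crossed to a call, 114 lost one and 4 reversed. A value not called under either setting counts as kept whatever its sign. The reversals came on deposited TPM: the difference between lines of IFI44 was -0.088 and of IFI44L -0.21 with 1 added, and the control comparison of PARP9 was -0.046 with 1 and -0.049 with 0.1 added. The cause was not tested. Apart from the minimum fold change, the calls held under every setting run for 26, 25 and 29 of 31 genes with A549 siRNA1, siRNA2 and siRNA3, 26 of 39 in MDA-MB-231, 22 of 39 for the difference between lines and 34 of 38 between controls.

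A minimum log2 fold change of 1 kept, by construction, fewer calls: 3975, 2412 and 2540 of all genes with A549 siRNA1, siRNA2 and siRNA3, 2114 for siRNA1 against siRNA2, 3212 for siRNA1 against siRNA3, 2470 for siRNA2 against siRNA3, 932 in MDA-MB-231, 3621 between lines and 5576 between controls. Of the interferon-stimulated genes, in the same order, 9, 10 and 10, then 1, 3 and 4, then 2, 6 and 1 were higher, and 1, 0 and 1, then 4, 4 and 1, then 0, 4 and 28 were lower. With 1 or 0.1 added to TPM, 1 gene fell with siRNA2, 7 were lower with siRNA1 than with siRNA3, and 2 were higher in A549 control.

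Leaving out 1 library moved the genes lower with siRNA2 to 1 to 3 (1 without siRNA2 library 2 or 3 or control library 1 or 3), those lower in MDA-MB-231 to 2 to 6 (2 without siRNA1 library 2 or 3, 6 without control library 3), those lower for the difference between lines to 5 to 8 (5 without A549 siRNA1 library 2 or A549 control library 3) and those lower in A549 control to 20 to 32. The last reached 20 without MDA-MB-231 control library 2 or 3 and 21 without library 1, where only 26 genes passed the filter of 3 libraries.

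Libraries with the same number did not pair: 5 of 21 same-number pairs had correlated deviations over 0.1 (range -0.61 to 0.37). With the replicate block the counts were 20 higher and 5 lower, 18 and 3, and 16 and 5 with the A549 siRNAs, 25 and 4 in MDA-MB-231, and 11 and 8 between lines. Between controls the block, taken within each line, could not be fitted, as it leaves no residual degrees of freedom. Depth limits the 9 of 40 genes outside the filter in A549, such as IFI27 with 2 to 22 reads per library.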
